A study of Mus musculus with 41 samples.

Results

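Replication-dependent histone genes are the clustered genes whose deposited names begin with Hist1h to Hist4h, and 70 of the 34591 genes in the deposited mouse expression table met that rule. By name they were 6 genes of linker histone H1, 20 of histone H2A, 19 of H2B, 12 of H3 and 13 of H4. The annotation used below lists Hist1h2aj, Hist1h2al and Hist3h2bb-ps as pseudogenes, and these were kept in the class sums. The Hist1 cluster held 56 of them, Hist2 held 10, Hist3 held 3 and Hist4 held 1. RNA had been sequenced from 41 samples in 6 groups. The tumors were 20 K27M and 9 WT-Tag brainstem tumors from mice heterozygous for an H3f3a LSL-K27M-Tag or LSL-WT-Tag allele and carrying Nestin-creERT2, LSL-PDGFRαV544ins and Trp53 flox/flox. The neurospheres, floating cultures of neural precursors from e15.5 embryos, carried Nestin-cre and an LSL-K27M-Tag or LSL-WT-Tag allele, with neither the receptor nor the Trp53 alleles. They came in 3 K27M and 3 WT-Tag hindbrain cultures and 3 K27M and 3 WT-Tag forebrain cultures, labelled experiments 1 to 3. Hindbrain and forebrain cultures of the same genotype and experiment also share a culture letter in their names. LSL is a stop cassette that Cre removes, so that either tagged H3.3 with lysine 27 changed to methionine or tagged wild-type H3.3 is made, in cells that have expressed the nestin-driven Cre. Every group therefore carried a tagged H3f3a allele, and cells of the host brain remained in the tumors. No label says whether the cultures of a group came from separate embryos, so the p-values measure the spread between these samples, which may be partly technical.

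Each time a cell copies its genome it must package the new DNA, and the clustered genes supply histones for this in S phase. Their transcripts are the main metazoan mRNAs without a poly(A) tail: they end just after a short stem-loop that is bound by the protein SLBP and cut with the help of U7 snRNP. NPAT gathers at these clusters in histone locus bodies and drives their transcription. Histone H3.3, by contrast, is made outside S phase as well, from H3f3a and H3f3b, whose mRNAs are polyadenylated. The libraries were made from total RNA, in which transcripts without a tail can be measured.

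The sequence that sets these mRNAs apart was searched in the GENCODE M21 transcripts, on build GRCm38, as a 16-base stem-loop with arms of 6 bases and a loop of 4 within 100 bases after the stop codon. The first arm had to begin with GG and the loop with TT. The shares below are therefore those of this pattern and not of any stem-loop of that size. It was found in 44 of the 67 protein-coding histone genes examined (65.7%), against 10 of 21884 other coding genes (0.0457%). Of the 26 members without a match, 15 coding ones had annotated transcripts that ended within 20 bases of the stop codon, so that the search had little to read. Examples of each class and of each stem sequence follow, with the stem-loop in capitals and 5 flanking bases on each side. They are shown because the results below turn on these genes, and because the last ones belong to genes that went their own way.
Hist1h1e (H1, chr13:23621782-23621797, minus strand): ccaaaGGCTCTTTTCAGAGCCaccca
Hist1h2ag (H2A, chr13:22042483-22042498, minus strand): acaaaGGCTCTTTTCAGAGCCaccta
Hist1h2bp (H2B, chr13:21787923-21787938, plus strand): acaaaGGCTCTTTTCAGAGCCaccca
Hist1h2bb (H2B, chr13:23747203-23747218, plus strand): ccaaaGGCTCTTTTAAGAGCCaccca
Hist1h3b (H3, chr13:23752820-23752835, plus strand): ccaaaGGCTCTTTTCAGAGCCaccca
Hist1h4d (H4, chr13:23581950-23581965, plus strand): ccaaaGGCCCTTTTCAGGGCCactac
Hist1h4b (H4, chr13:23757366-23757381, plus strand): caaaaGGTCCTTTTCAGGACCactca
Hist1h4i (H4, chr13:22040966-22040981, minus strand): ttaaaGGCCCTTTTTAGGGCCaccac
Hist2h2ac (H2A, chr3:96220418-96220433, minus strand): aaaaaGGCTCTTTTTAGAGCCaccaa
Hist4h4 (H4, chr6:136803998-136804013, minus strand): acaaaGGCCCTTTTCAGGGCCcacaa
Hist3h2a (H2A, chr11:58955172-58955187, plus strand): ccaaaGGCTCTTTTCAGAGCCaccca

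The coordinates are those of the stem-loop on GRCm38 and not of mm9, the build named for the deposited table. The commonest form, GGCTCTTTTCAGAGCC, was shared by 26 members of the classes H1, H2A, H2B and H3, and by no H4 gene. Of the 11 H4 genes with a match, 7 carried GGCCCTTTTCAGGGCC, 2 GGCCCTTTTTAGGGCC and 2 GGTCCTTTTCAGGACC. Past the stem-loop the annotation differed between members. In 22 members all annotated transcripts that hold the loop ended within 100 bases of it, and the other 22 had such a transcript that ran further. The annotated end of Hist4h4 lay 2445 bases past the loop, that of Hist3h2a 1643 bases, that of Hist1h1e 1153 bases, that of Hist1h4d 770 bases and that of Hist1h4i 330 bases. A value in FPKM (fragments per kilobase of transcript, scaled to mapped fragments) depends on the length of the gene model, and the sources used here do not give the authors' gene models.

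Many members are near copies of each other. Of the 70, 32 shared more than 50% of their 50-base words with another member and 6 shared none; the sources used here do not say how reads from shared stretches were assigned. Among the members discussed below, Hist4h4 shared no word, Hist1h4d shared 10.2%, Hist1h4i 28.9%, Hist1h2bp 44.1%, Hist1h2ab 58.0%, Hist1h2ag 78.9% and Hist1h2ao 93.5%. Sharing was uneven within H2A, from 2.00% in Hist3h2a and 11.6% in Hist1h2ac to the 93.5% of Hist1h2ao, and high in single members of other classes, such as Hist1h2bk (74.2%) and Hist1h4k (71.5%). Exons of 26 members overlap those of another gene, among them Hist3h2a with Trim17 and Hist1h1e with Hist1h2be, and use of strand in counting is not stated. Hist2h2aa1, all of whose words are found in Hist2h2aa2 as well, was at 0 FPKM in all 41 libraries.

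Promoters of 62 members were found in the RefSeq table for GRCm38.p6, as 63 windows of 300 bases around the start. CCAAT, read on both strands, stood in 54 of the 63 windows (85.71%), against 37.41% of all 32851 promoters, and 71.43% held at least 2 copies, against 11.7%. All 18 H2A, all 17 H2B, all 10 H3 and all 6 H1 windows held a CCAAT, but only 3 of the 12 H4 windows did. TATAAA stood in 35 windows (55.56%, against 13.62% of all promoters), and the octamer ATTTGCAT in 14 (22.22%, against 1.735%), 7 of H2A and 7 of H2B. The windows of 3 genes are printed because their levels stand out below, with CCAAT and TATAAA in capitals (ATTGG and TTTATA are the same motifs on the other strand): Hist1h2bp rose in K27M hindbrain cultures, Hist1h4d was the most abundant member, and Hist4h4 was the only member called lower in K27M hindbrain cultures.
Hist1h2bp (GRCm38.p6, chr13:21787238-21787537, plus strand): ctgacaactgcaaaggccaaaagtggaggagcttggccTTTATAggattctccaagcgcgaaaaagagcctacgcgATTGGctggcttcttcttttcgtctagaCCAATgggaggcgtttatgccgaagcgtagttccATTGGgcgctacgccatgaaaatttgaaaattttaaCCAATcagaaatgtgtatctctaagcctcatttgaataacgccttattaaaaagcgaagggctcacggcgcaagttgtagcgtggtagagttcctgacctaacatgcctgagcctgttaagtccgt
Hist1h4d (GRCm38.p6, chr13:23581318-23581617, plus strand): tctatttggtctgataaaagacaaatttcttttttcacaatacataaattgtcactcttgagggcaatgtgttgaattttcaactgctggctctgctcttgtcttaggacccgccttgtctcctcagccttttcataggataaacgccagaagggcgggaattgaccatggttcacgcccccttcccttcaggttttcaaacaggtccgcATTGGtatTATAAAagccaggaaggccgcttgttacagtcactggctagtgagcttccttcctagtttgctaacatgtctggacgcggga
Hist4h4 (GRCm38.p6, chr6:136804382-136804681, minus strand): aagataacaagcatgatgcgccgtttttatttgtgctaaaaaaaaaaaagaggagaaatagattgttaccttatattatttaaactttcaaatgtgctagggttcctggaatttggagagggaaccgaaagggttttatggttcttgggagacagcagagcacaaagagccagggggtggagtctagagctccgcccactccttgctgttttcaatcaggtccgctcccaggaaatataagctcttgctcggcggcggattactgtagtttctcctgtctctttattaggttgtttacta

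Hist1h2bp had 4 CCAAT matches and 1 TATAAA, Hist1h4d had 1 of each, and Hist4h4 had neither of them nor an octamer. These matches describe the letters in the window and not the binding of any factor.

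The tumors were tissue and the neurospheres culture, as marker genes showed. Summed FPKM of 11 neuronal markers ran from 23.7 to 923 in tumors and from 5.91 to 9.44 in neurospheres, that of 12 microglial markers from 196 to 744 in tumors and from 1.55 to 2.99 in neurospheres, and that of 10 neural progenitor markers from 159 to 1269 in tumors and from 2123 to 2582 in neurospheres. The median relative depth of a group, read from the steps between low FPKM values, ran from 0.80 in K27M forebrain cultures to 1.28 in WT-Tag tumors, and the lowest library was a K27M forebrain culture at 0.349. WT-Tag tumors 8 and 9 were the 2 libraries of 41 whose Y-linked transcripts and Xist went against their sex label, so results of the tumor comparison are also given without them. FPKM of H3f3a does not tell the tagged allele from the untagged one, and the K27M allele itself was not checked here.

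Histone genes held a larger mean share of the summed FPKM in neurospheres than in tumors. FPKM is scaled by transcript length, so a share of FPKM is not a share of RNA. The 70 members summed to 22399 ± 2835 FPKM in K27M, against 16179 ± 4174 in WT-Tag hindbrain cultures, and to 20604 ± 2919 FPKM in K27M, against 13502 ± 3263 in WT-Tag forebrain cultures (SD, n = 3 each). In tumors the sum was 4318 ± 1881 FPKM in K27M tumors, against 5893 ± 4248 in WT-Tag tumors (SD, n = 20 and 9). As a share of all FPKM in a library this was 3.11% ± 0.437 in K27M and 2.21% ± 0.820 in WT-Tag hindbrain cultures, 3.01% ± 0.463 in K27M and 1.91% ± 0.656 in WT-Tag forebrain cultures, and 0.518% ± 0.236 in K27M and 0.686% ± 0.469 in WT-Tag tumors. In bulk RNA, fewer dividing cells and less histone RNA in each dividing cell cannot be told apart.

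**Figure D1:**
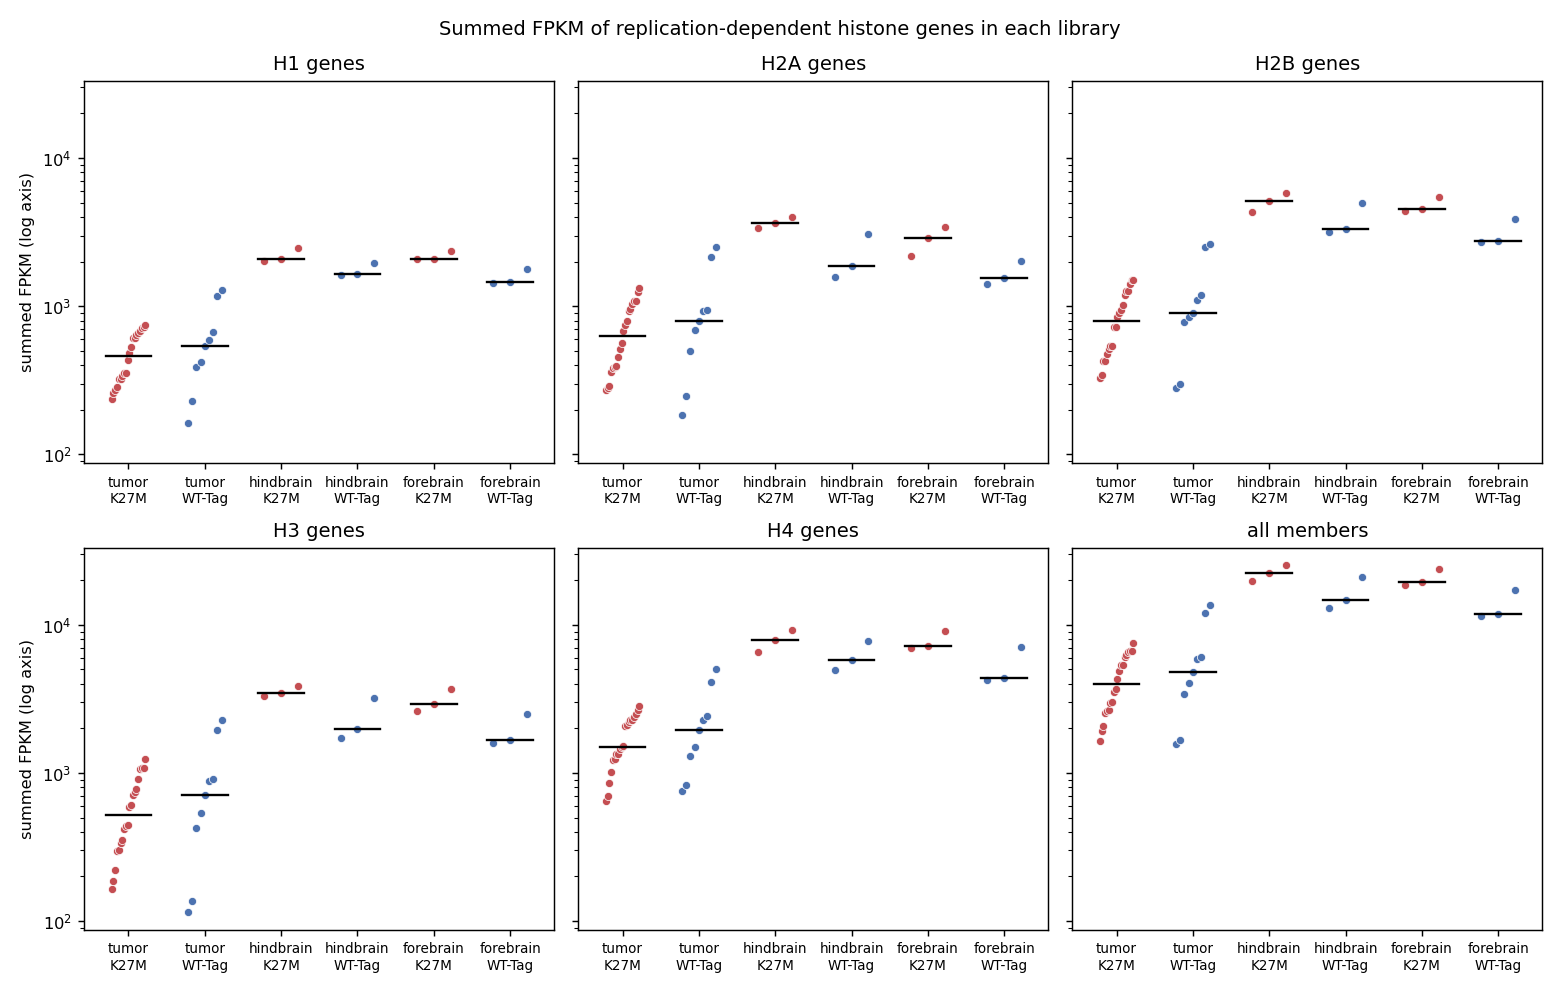
Summed FPKM of each histone class and of all members (vertical axis, log scale) in each library, by group; every point is 1 library and the bar is the group median. Nearly all tumors lie below the neurospheres in every class, and the WT-Tag tumors spread most: their summed H3 FPKM ran from 114 to 2291.

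H4 was the largest class and H2B the second in all 6 groups. H4 made up 40.2% of the summed FPKM in K27M tumors, against 40.4% in WT-Tag tumors, and between 35.2% and 38.4% in the neurosphere groups. H2B had group means of 19.4% to 23.6%, H2A of 12.4% to 16.4%, H3 of 13.1% to 15.9% and H1 of 9.80% to 11.8%. The order of H2A and H3 differed between groups: mean summed FPKM was higher for H2A in both tumor groups and in K27M hindbrain cultures (3656 for H2A and 3550 for H3) and higher for H3 in the other 3 groups. The most abundant member in all 6 groups was Hist1h4d, a histone H4 gene, at a mean of 311 FPKM in K27M, against 424 in WT-Tag tumors, 1487 in K27M and 1163 in WT-Tag hindbrain cultures, and 1393 in K27M and 960 in WT-Tag forebrain cultures. The linker histone gene Hist1h1e and the H4 genes Hist1h4h and Hist1h4k competed for the next places. Members above 100 FPKM on average numbered 12 in K27M tumors, 22 in WT-Tag tumors, 56 in K27M and 49 in WT-Tag hindbrain cultures, and 55 in K27M and 42 in WT-Tag forebrain cultures. In each group the 10 highest members together held between 37.5% and 41.4% of the sum, so no single gene dominated.

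**Figure D2:**
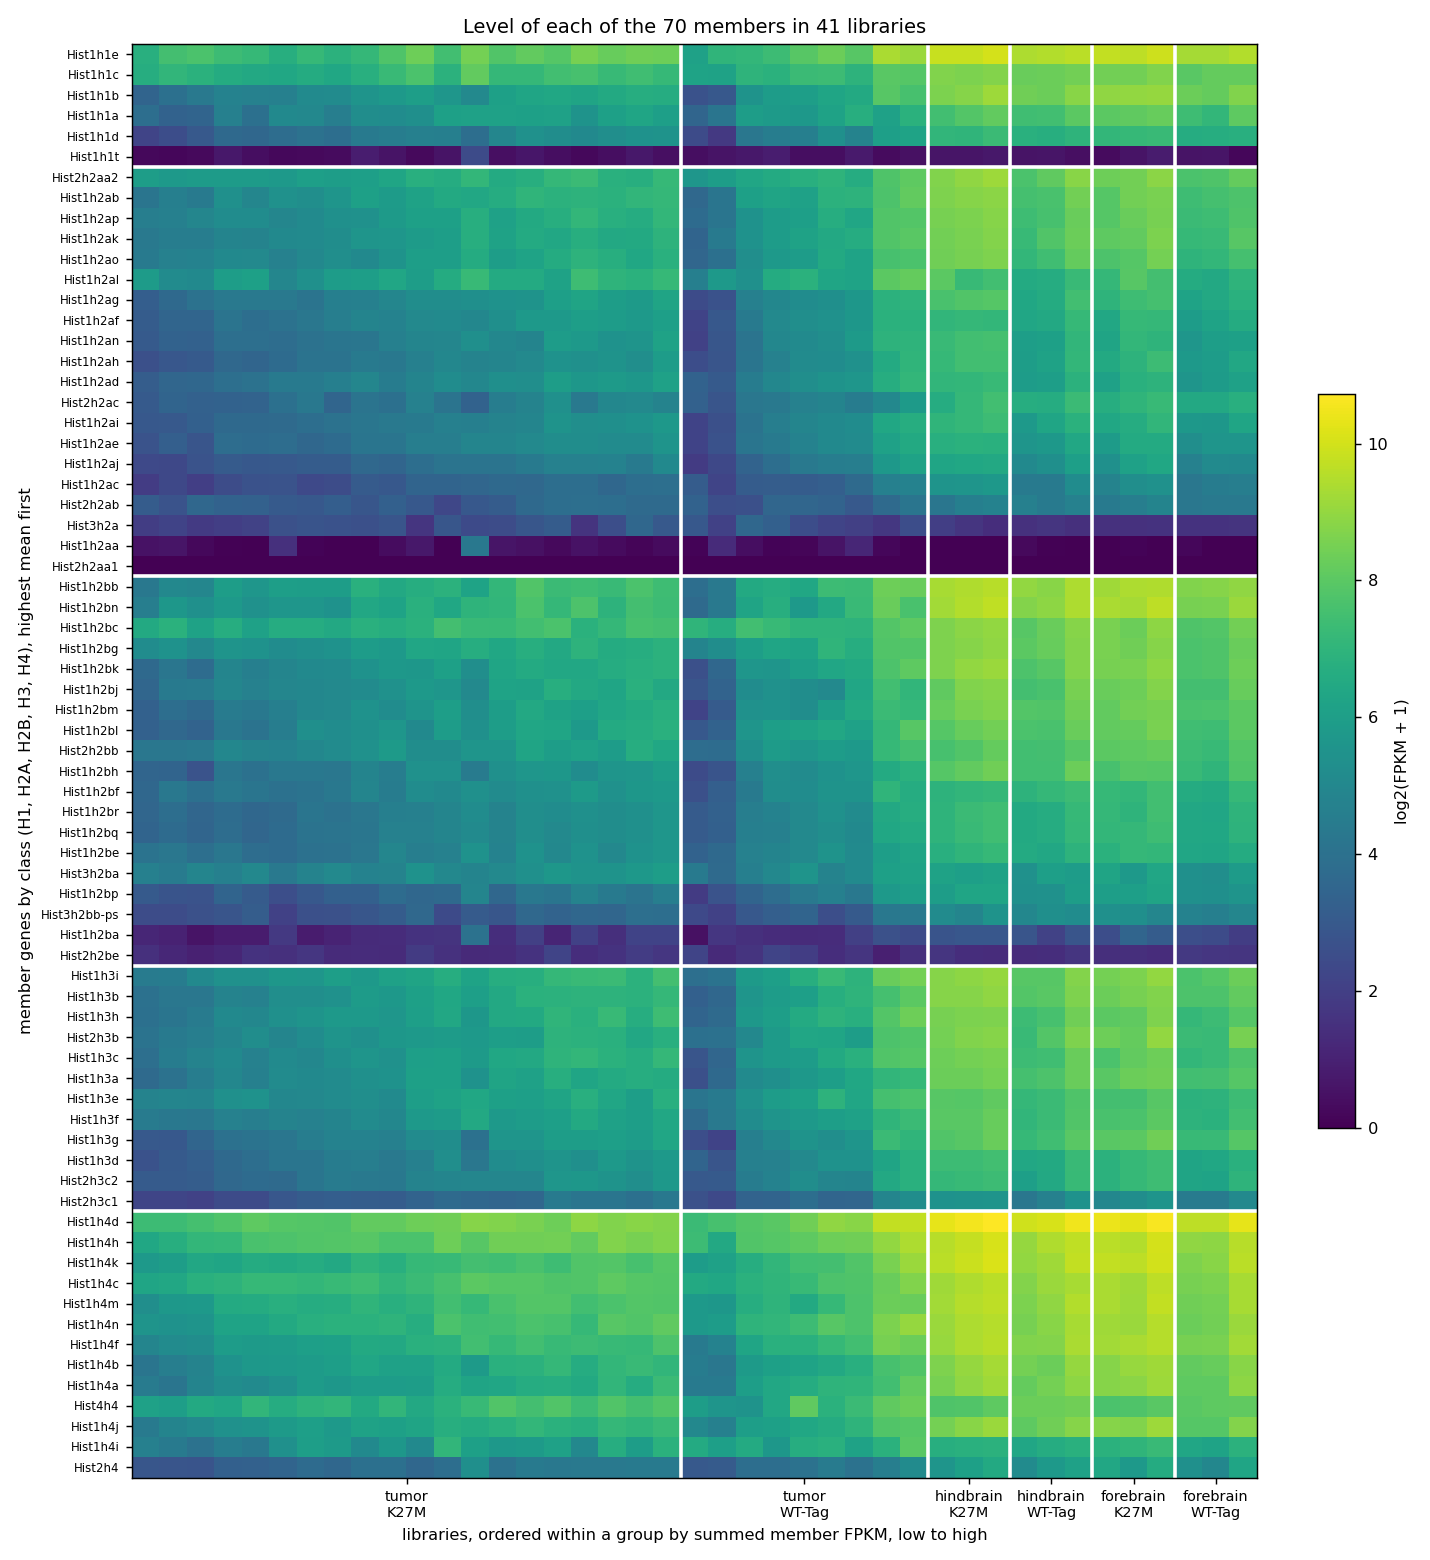
Level of each of the 70 members (rows, by class and then by mean level) in each of the 41 libraries (columns, by group and then by summed member FPKM), as log2(FPKM + 1) on a color scale. Rows range from near 0 (Hist1h1t, Hist1h2aa, Hist2h2aa1) to Hist1h4d, which reached 1690 FPKM in a K27M hindbrain culture, and the neurosphere columns are higher in nearly every row.

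Some members hardly took part. Hist1h1t and Hist1h2aa, which encode histones of the testis, had mean levels below 1 FPKM in every group apart from Hist1h2aa in K27M tumors, where 1 tumor raised the mean to 1.24 FPKM. Hist2h2be and Hist3h2a, both detected throughout, stayed between 0.911 and 3.63 FPKM and between 1.67 and 11.1 FPKM in all libraries. With 1 FPKM or more required in 9 or more tumors, 67 of the 70 members entered the tumor comparison; 67 entered the neurosphere comparisons and 68 the comparison of tumors with neurospheres.

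The supply of canonical H3 can be set beside that of H3.3, whose gene H3f3a carries the knock-in. The 12 Hist H3 genes summed to 10.6 ± 1.32 times the FPKM of H3f3a plus H3f3b in K27M and 8.49 ± 1.69 times in WT-Tag hindbrain cultures, and to 9.96 ± 2.33 times in K27M and 7.07 ± 1.21 times in WT-Tag forebrain cultures. In tumors this ratio was 2.84 ± 1.57 in K27M and 3.68 ± 2.85 in WT-Tag, with the lowest tumor at 0.4932 (WT-Tag) and the highest at 9.34 (WT-Tag). Genes for H3.1 gave 39.7% of the H3.1 and H3.2 transcript in K27M tumors, against 38.3% in WT-Tag tumors, 40.97% in K27M and 41.6% in WT-Tag hindbrain cultures, and 42.8% in K27M and 42.5% in WT-Tag forebrain cultures. Between K27M and WT-Tag tumors the H3.1 share differed by less than its spread (SD 3.54 percentage points in K27M and 4.63 in WT-Tag).

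Whether K27M changes histone transcripts was asked first in neurospheres of the hindbrain, which gives rise to most of the brainstem. Of the 67 members tested, 9 were higher in K27M and 1 was lower at an adjusted p under 0.05 (limma with Benjamini-Hochberg adjustment over 13190 genes). For all genes the share called was 8.42% higher and 5.13% lower, so the members' 10 calls lie near the background in number. Their direction and class were uneven: 8 of the 9 higher genes were H2A genes, which are 20 of the 70 members. These 8 shared between 11.6% (Hist1h2ac) and 93.5% (Hist1h2ao) of their 50-base words with other members. How reads from shared stretches were assigned is not stated, so the 8 calls cannot be counted as independent. Across all genes the split of calls depended on scaling, with 1111 higher and 676 lower as deposited and 960 higher and 1049 lower with upper-quartile scaling, whereas 63 of the 67 members had a positive log2 change as deposited and 62 had one with that scaling.

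The H2A gene Hist1h2ag stood at 225, 238 and 200 FPKM in K27M hindbrain cultures of experiments 1, 2 and 3, against 179, 82.8 and 95.1 FPKM in WT-Tag hindbrain cultures. All K27M values lay above all WT-Tag values, but the WT-Tag culture of experiment 1 came close. Its log2 change was 0.97 ± 0.26 (SE, adjusted p = 0.0355, limma). Hist1h2an, which makes the same class of core histone, had 175, 191 and 154 FPKM in K27M and 133, 62.9 and 67.3 FPKM in WT-Tag cultures. Again the groups did not overlap and the experiment 1 culture led the WT-Tag group; the log2 change was 1.05 ± 0.28 (adjusted p = 0.0346, limma), the largest of the 9. Hist1h2ab, the H2A gene with the highest level of the Hist1 cluster, had 434, 460 and 405 FPKM in K27M and 343, 190 and 200 FPKM in WT-Tag cultures. Here too the lowest K27M culture was above the highest WT-Tag culture (log2 change 0.87 ± 0.23, adjusted p = 0.0298, limma). Hist1h2ao, Hist1h2ac, Hist1h2ae, Hist1h2ai and Hist1h2ap, all H2A genes, rose by log2 changes between 0.88 and 0.95. The only gene of another class among the 9 was the H2B gene Hist1h2bp, at 76.9, 78.2 and 61.8 FPKM in K27M and 61.1, 40.2 and 42.1 FPKM in WT-Tag cultures. Its groups were separate by a narrow margin, and its log2 change was 0.60 ± 0.16 (adjusted p = 0.0293, limma).

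Hist4h4, the single gene of the Hist4 cluster, was the only member to pass the threshold with a lower level in K27M. It had 221, 265 and 217 FPKM in K27M hindbrain cultures, against 339, 316 and 316 FPKM in WT-Tag hindbrain cultures. No culture overlapped, and the log2 change was -0.47 ± 0.11 (adjusted p = 0.0211, limma). The call was lost, with the direction kept, when the hindbrain libraries were fitted alone (0.107), without experiment 3 (0.213), or without the K27M culture 1 (0.0901) or 3 (0.0625) or the WT-Tag culture 2 (0.0607) or 3 (0.0595). The other 12 H4 genes had positive log2 changes between K27M and WT-Tag hindbrain cultures. Relative to their sum, Hist4h4 stood at 3.08% ± 0.287 in K27M and 5.72% ± 1.11 in WT-Tag hindbrain cultures, and at 3.00% ± 0.196 in K27M and 5.64% ± 1.34 in WT-Tag forebrain cultures. In all 6 K27M cultures this share was between 2.83% and 3.41%, and in all 6 WT-Tag cultures between 4.10% and 6.81%. Cultures of the 2 regions share a culture letter within a genotype and experiment, so the 6 may not be independent. In tumors it was 9.20% ± 1.91 in K27M and 7.41% ± 3.56 in WT-Tag, with overlapping ranges.

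With looser limits, and over all 67 tested members, the family mostly pointed the same way with less certainty. The counts that follow include the members already called above, so they are not separate support. At an unadjusted p under 0.05 there were 35 members, 34 higher and 1 lower (Hist4h4), where 30.8% of all genes met that limit. In 26 members every K27M culture was above every WT-Tag culture and in 1 every K27M culture was below, where 16.9% and 11.1% of all genes did so. The median log2 change was 0.46 over the 67 members and 0.09 over all genes. By class it was 0.88 for H2A, 0.66 for H3, 0.40 for H2B, 0.37 for H4 and 0.33 for H1. Of the more abundant members, Hist1h3b, an H3.2 gene, had 441, 494 and 433 FPKM in K27M and 405, 233 and 253 FPKM in WT-Tag cultures, without overlap (log2 change 0.66, adjusted p = 0.0512, limma). The linker gene Hist1h1e had 898, 1052 and 896 FPKM in K27M and 785, 683 and 727 FPKM in WT-Tag cultures, also without overlap (0.37 ± 0.13, adjusted p = 0.0724). Hist1h4d, at 1480, 1690 and 1291 FPKM in K27M and 1421, 977 and 1089 FPKM in WT-Tag cultures, overlapped between the groups (0.36, adjusted p = 0.260). The ratio of summed H2A to summed H4 FPKM was 0.467 ± 0.0404 in K27M and 0.345 ± 0.0445 in WT-Tag hindbrain cultures, and its lowest K27M value (0.433) was above its highest WT-Tag value (0.396). In forebrain cultures it was 0.366 ± 0.0576 in K27M and 0.325 ± 0.0359 in WT-Tag, with overlapping values, and in experiment 2 it was lower in K27M (0.304) than in WT-Tag (0.356).

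How many members passed depended on single cultures. In experiment 1 the K27M hindbrain culture had 1.07 times the summed FPKM of the WT-Tag culture, in experiment 2 it had 1.94 times and in experiment 3 it had 1.34 times. The WT-Tag cultures of experiment 1 had the highest sums of their groups, 20910 FPKM in hindbrain and 17265 in forebrain, and without both of them, an alternative chosen after seeing the data, 51 members were higher and 1 was lower. Without the hindbrain WT-Tag culture of experiment 1 alone, 44 members were called. Without any 1 of the other 5 hindbrain cultures, between 0 and 2 were called, and without the forebrain WT-Tag culture of experiment 2, 6 were. With the experiment as a block, 25 members were higher and 1 was lower; in a fit of the hindbrain libraries alone, or without experiment 3, in which the WT-Tag cultures were labelled male and the K27M cultures female, 0 were called. Without the filter on low FPKM 2 were called. Calls over all genes moved as well: with 1 of the 12 libraries left out they ran from 554 to 4212. A rise in the number of calls was therefore not particular to the members. The counts over all genes under the other alternatives stand in the section on processing.

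**Figure D3:**
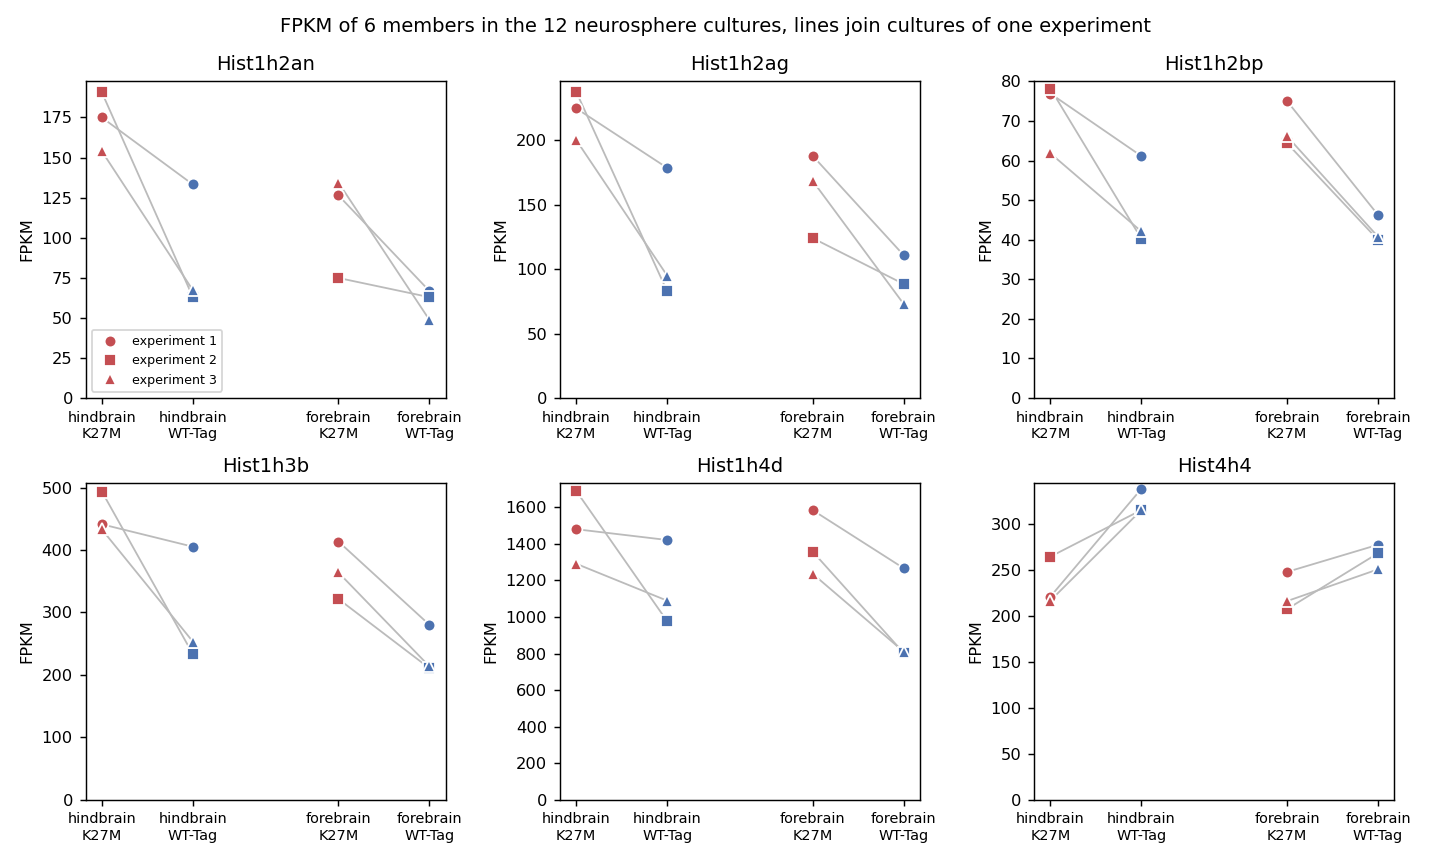
FPKM of selected members in the 12 neurosphere cultures, K27M left of WT-Tag within each region, with a line joining the cultures of the same experiment. Vertical axes are in FPKM and start at 0. The H2A genes Hist1h2an and Hist1h2ag are higher in K27M in each experiment of both regions, with the smallest step in experiment 1 in hindbrain and in experiment 2 in forebrain, and Hist4h4 is lower in K27M in each.

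In forebrain neurospheres no member passed at an adjusted p under 0.05, where 0.356% of all genes did. Yet the shift was broad: 61 of the 67 members had an unadjusted p under 0.05 (limma, 59 higher and 2 lower), where 13.1% of all genes had one. Members share cultures and, in part, sequence, so the 61 are not independent observations. Every K27M culture was above every WT-Tag culture in 42 members, against 15% of all genes, and below in 3, against 9.84%. The median log2 change was 0.66 over the members and 0.04 over all genes, with class medians of 0.77 for H2A, 0.68 for H3, 0.61 for H2B, 0.59 for H4 and 0.47 for H1. The linker gene Hist1h1d had 151, 136 and 142 FPKM in K27M forebrain cultures and 109, 103 and 97.4 FPKM in WT-Tag forebrain cultures. The groups were well apart (log2 change 0.47 ± 0.11), and its adjusted p of 0.102, shared with Hist1h2bp, was the smallest among the members (limma). Hist1h2bp had 75.0, 64.4 and 66.2 FPKM in K27M and 46.3, 40.0 and 40.8 FPKM in WT-Tag cultures, also apart (0.68 ± 0.16). Hist1h4d had 1585, 1358 and 1236 FPKM in K27M and 1267, 803 and 810 FPKM in WT-Tag cultures, where the experiment 1 WT-Tag culture overlapped the K27M group (0.56, adjusted p = 0.290). Hist4h4 again lay below, at 248, 208 and 216 FPKM in K27M and 278, 269 and 251 FPKM in WT-Tag cultures, with no overlap (-0.25 ± 0.11, adjusted p = 0.372). The other 2 members with separate groups and lower K27M values were Hist2h2be (-0.29) and Hist3h2a (-0.06), both at a few FPKM.

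Within experiments the K27M forebrain culture had 1.39, 1.57 and 1.69 times the summed FPKM of the WT-Tag culture in experiments 1, 2 and 3, and 65, 64 and 64 of the 70 members were higher in it. Without both WT-Tag cultures of experiment 1, 54 members passed. With 1 library left out at a time, 4 passed without the hindbrain WT-Tag culture of experiment 1, which shares the estimate of spread, and 0 passed without any other library. Over all genes, between 20 and 178 passed with 1 library left out. The count over all genes without both WT-Tag cultures of experiment 1 also rose and stands in the section on processing.

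The effect of K27M was not shown to differ between the regions. Of the 67 members none passed the test of that difference at an adjusted p under 0.05, where 0.0379% of all genes did (5 genes, 4 higher and 1 lower; 4 and 0 with upper-quartile scaling or median centring; 0 in all with the experiment as a block). At an unadjusted p under 0.05 there was 1 member, the H2B gene Hist1h2bf (hindbrain minus forebrain -0.60, adjusted p = 0.760), against 6.30% of all genes. All 13 H4 genes had a negative difference, with a median of -0.23, and 12 of 18 H2A genes a positive one, with a median of 0.09. Between regions within a genotype no member passed either. In WT-Tag cultures 65 of 67 members had higher levels in hindbrain than in forebrain, with a median log2 change of 0.26 (-0.04 over all genes, 1.82% called), and 2 had an unadjusted p under 0.05, where 10.8% of all genes did. In K27M cultures 50 of 67 were higher in hindbrain, with a median of 0.10 (-0.01 over all genes, 7.92% called), and 1 had an unadjusted p under 0.05, Hist1h2an at 0.67 (adjusted p = 0.197), where 21.8% of all genes did.

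Genes of the machinery around these transcripts were followed from lists of stem-loop processing, histone gene transcription, histone chaperones and replication-independent histones. In hindbrain cultures 0 of 17 processing genes passed: Slbp, whose product binds the stem-loop, averaged 16.6 ± 1.45 FPKM in K27M, against 13.1 ± 4.68 in WT-Tag (log2 change 0.37, adjusted p = 0.216). Of 11 transcription genes 1 rose, Cdkn1a, a cyclin-dependent kinase inhibitor, at 62.0 FPKM in K27M, against 37.9 in WT-Tag (0.70, adjusted p = 0.00737), while Npat differed by 0.02 and Casp8ap2, whose product is needed for histone locus bodies, by -0.08. Of 21 chaperone genes 2 rose. Hjurp, the chaperone of the centromeric histone CENP-A, averaged 51.5 FPKM in K27M, against 25.6 in WT-Tag (1.02, adjusted p = 0.00737), and Ubn1, a subunit of the HIRA complex that deposits H3.3, averaged 13.7 FPKM in K27M, against 9.78 in WT-Tag (0.46, adjusted p = 0.0294). Of 12 replication-independent histone genes 1 rose, the linker histone gene H1f0, at 181 FPKM in K27M, against 99.9 in WT-Tag (0.89, adjusted p = 0.0275, limma). Among all genes 8.42% were called higher in this comparison, so the calls in these lists lie near the background in number. The levels of H3f3a and H3f3b changed by 0.11 (adjusted p = 0.527) and 0.47 (adjusted p = 0.106). In forebrain cultures none of the 4 lists had a member past the threshold; Slbp changed by 0.35 (adjusted p = 0.469) and Hjurp by 0.65 (adjusted p = 0.171).

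Markers of proliferation pointed the same way as the histone genes. All 31 S phase genes and all 20 mitotic genes had positive log2 changes in both regions, with medians of 0.38 and 0.57 in hindbrain and of 0.38 and 0.37 in forebrain, and none of them passed. In experiment 1, where the histone sum of the K27M hindbrain culture was 1.07 times that of the WT-Tag culture, the summed S phase genes stood at 0.927 times; in experiments 2 and 3 they stood at 1.89 and 1.36 times. In forebrain they stood at 0.958, 1.50 and 1.64 times. The ratio of the histone sum to the S phase sum overlapped between genotypes, at 26.9 ± 1.53 in K27M and 25.6 ± 3.31 in WT-Tag hindbrain cultures and 21.5 ± 3.87 in K27M and 18.3 ± 0.814 in WT-Tag forebrain cultures. Within experiments it was higher in K27M in all 3 forebrain pairs (25.9 in K27M and 17.9 in WT-Tag in experiment 1, 20.2 in K27M and 19.3 in WT-Tag in experiment 2, and 18.4 in K27M and 17.9 in WT-Tag in experiment 3) and in 2 of the 3 hindbrain pairs. The ratio of the histone sum to the mitotic sum averaged 24.3 in K27M and 25.1 in WT-Tag hindbrain cultures. In forebrain cultures it averaged 22.5 in K27M and 18.6 in WT-Tag, and genotypes overlapped in both regions. Cell type markers moved too. Of 10 astrocyte markers 7 were lower in K27M hindbrain cultures, with summed FPKM of 237 to 256 in K27M and 456 to 714 in WT-Tag, and 1 was lower in forebrain, with sums of 382 to 468 in K27M and 509 to 817 in WT-Tag. Of 5 oligodendrocyte markers tested 2 were lower in hindbrain, with sums over 10 markers of 19.2 to 28.3 FPKM in K27M and 31.3 to 99.6 in WT-Tag, and Mog at 0 in the K27M cultures. Of 10 neural progenitor markers 2 were higher and 2 lower in hindbrain (sums of 2161 to 2273 in K27M and 2147 to 2281 in WT-Tag). Neuronal, microglial and endothelial sums reached at most 9.44 FPKM in the 12 cultures. The part of these markers in the histone result was not tested.

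**Figure D4:**
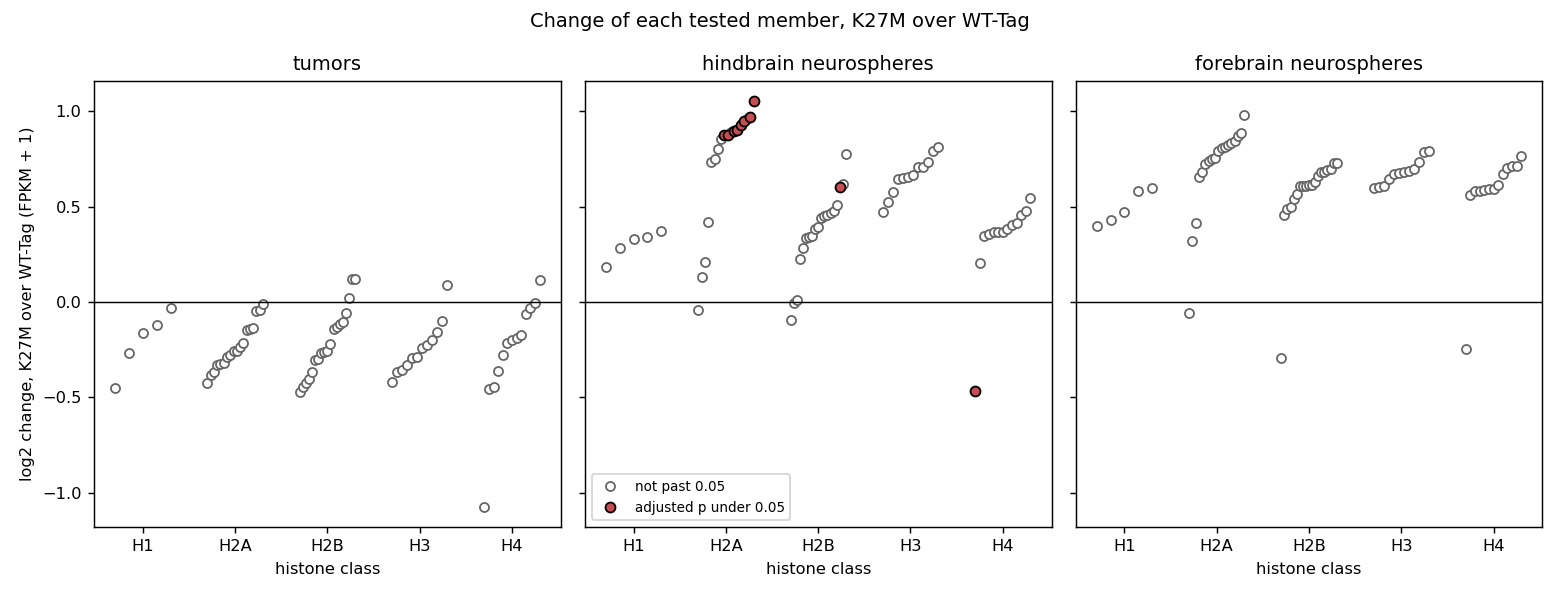
Log2 change of each tested member between K27M and WT-Tag (vertical axis, on the log2(FPKM + 1) scale), by histone class, in tumors, hindbrain cultures and forebrain cultures; filled points passed the adjusted p threshold of 0.05. Culture changes lie above 0 for nearly all members, H2A highest in hindbrain, and tumor changes lie mostly below 0.

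In tumors the picture was a different one. None of the 67 members passed in K27M against WT-Tag tumors at an adjusted p under 0.05, where 0.0846% of all 15360 genes did (7 higher and 6 lower; 6 and 8 with upper-quartile scaling). At an unadjusted p under 0.05 there was 1, where 7.19% of all genes had one. Log2 changes were negative in 62 of the 67 members, with a median of -0.24 (-0.01 over all genes). That direction rested on a few WT-Tag tumors. The WT-Tag tumors 9 and 28 had summed FPKM of 13602 and 12017, above every K27M tumor, while WT-Tag tumor 26 had 1576, the lowest of all. Without tumors 8 and 9 the median was 0.00, with 35 members positive and 32 negative, and without tumors 9 and 28, chosen after seeing the data, it was 0.22, with 58 positive and 9 negative. Of the 20 K27M tumors, 9 had sums above the median of WT-Tag tumors.

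The member with the smallest p was Hist1h4i, an H4 gene whose stem-loop is shown above. It ranged from 15.4 through a median of 50.7 to 133 FPKM in K27M tumors and from 49.9 through 94.2 to 248 FPKM in WT-Tag tumors. The ranges overlapped, with the highest value in WT-Tag tumor 9. Its log2 change was -1.07 ± 0.31 (p = 0.00152, adjusted p = 0.288, limma). Hist1h4d ranged from 162 through 304 to 473 FPKM in K27M and from 156 through 335 to 857 FPKM in WT-Tag tumors, and Hist4h4 from 64.2 through 132 to 226 FPKM in K27M and from 44.1 through 114 to 320 FPKM in WT-Tag tumors. Both groups overlapped almost fully in these genes. None of the listed machinery genes passed; Lsm11, a component of U7 snRNP, came closest, at 3.70 ± 0.881 FPKM in K27M, against 2.54 ± 0.529 in WT-Tag tumors (0.40, adjusted p = 0.214). Other cell types were unevenly present: all 11 neuronal and all 10 oligodendrocyte markers had positive log2 changes, none of them past the threshold, with median sums of 459 FPKM in K27M, against 221 in WT-Tag tumors for neurons and of 1150 in K27M and 549 in WT-Tag tumors for oligodendrocytes. Their part in the histone levels was not tested.

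Variation between tumors was larger than the difference between genotypes, and it was shared by the family. The SD of log2(FPKM + 1) over the 29 tumors had a median of 0.97 over the 67 members and of 0.384 over all 15360 genes tested. The widest was the H2B gene Hist1h2bl (SD 1.27), from 6.70 to 247 FPKM. Across tumors each member was set against the log2 sum of the others, and Pearson's r had a median of 0.955, with 52 of 67 members over 0.9. The 2 members below 0.5 were Hist2h2be (0.05) and Hist3h2a (0.11), both low throughout. The H1 gene Hist1h1c (0.780) and the H2B gene Hist1h2bc (0.750), both above 68 FPKM in every tumor, followed the family less closely and varied less (SD 0.52 and 0.48). These members share libraries and, in part, sequence, so the r values describe these tumors only.

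The summed members tracked the S phase list across the 29 tumors, with Pearson's r of 0.909 and Spearman's rho of 0.903 on log2 sums. Within genotypes r was 0.880 over 20 K27M tumors and 0.936 over 9 WT-Tag tumors, and without the 2 tumors farthest from the median, WT-Tag 9 and 26, it was 0.877. With the mitotic list r was 0.932, with Mki67, a marker of cycling cells, 0.907, and with Mcm2, a subunit of the replicative helicase, 0.873. With Slbp r was 0.595, or 0.447 within K27M tumors and 0.694 within WT-Tag tumors. With Npat it was 0.194, but -0.17 within K27M tumors and 0.675 within WT-Tag tumors. With summed H3.3 genes r was 0.381, with the neuronal markers -0.631, with the oligodendrocyte markers -0.425 and with the microglial markers 0.166. All points of a relation share a library, and no test is attached to them.

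**Figure D5:**
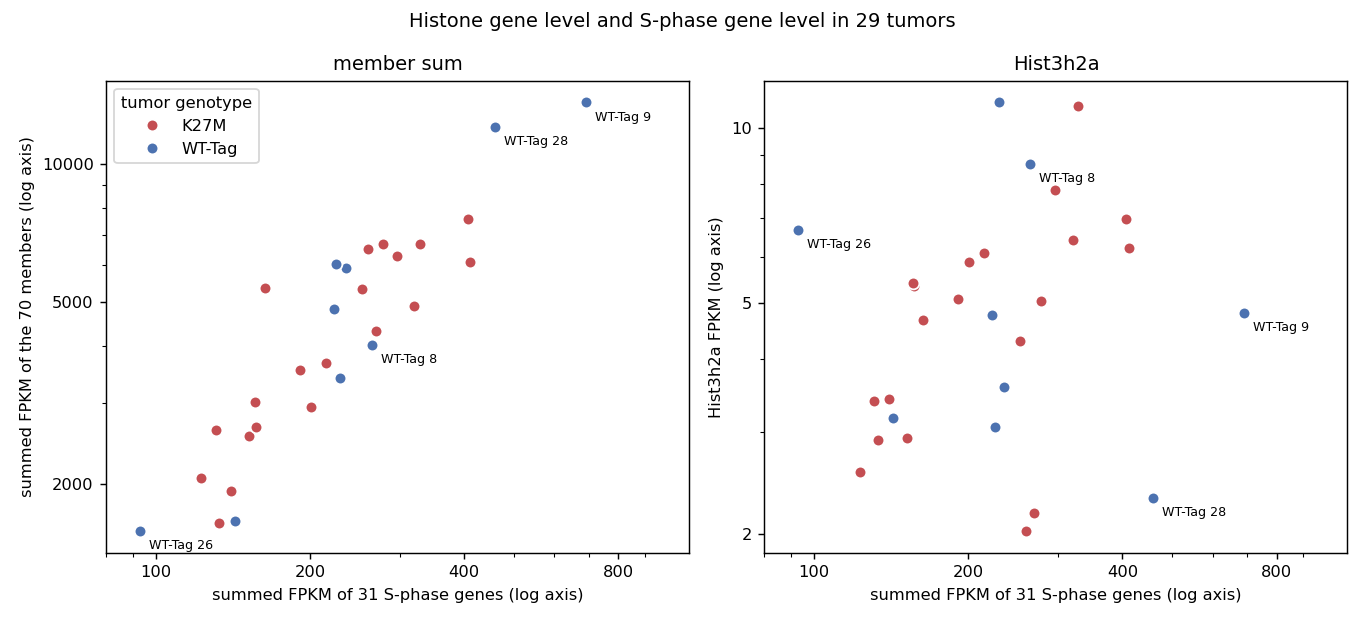
Summed FPKM of the 70 members (left) and FPKM of Hist3h2a (right) against summed FPKM of the 31 S phase genes in the 29 tumors, with log axes, K27M in red and WT-Tag in blue; each point is 1 tumor. On the left the points follow 1 band from WT-Tag tumor 26 (1576 FPKM) to WT-Tag tumor 9 (13602 FPKM) with both genotypes along it, and on the right WT-Tag tumors 26 and 9 lie inside the range of the others.

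Against hindbrain neurospheres of the same genotype, tumors had far less histone transcript. In K27M, 64 of 68 members were lower and 1 was higher in tumors at an adjusted p under 0.05, where 26.5% of all 16803 genes were lower and 33.1% were higher (the 2 directions held 4446 and 5562 genes as deposited, and 5654 and 4463 with median centring). In 61 members all 20 tumors lay below all 3 cultures, against 15.8% of all genes. The median log2 change was -2.69 over the members and 0.10 over all genes; median centring moved these to -2.85 and -0.06. In WT-Tag, 56 members were lower and 1 was higher, where 17.4% and 28.9% of all genes were (2930 and 4849 genes as deposited, 4868 and 3109 with median centring), and 24 members did not overlap, against 8.81%. Their median was -1.74, and 0.16 over all genes, or -1.99 and -0.08 with median centring. When the WT-Tag tumors and hindbrain cultures were fitted without the other groups, 38 members were called. The share of all genes called in that fit is not given here. Tumors and cultures also differ in the Cre line, the receptor allele, Trp53 and the material, and these cannot be told apart from one another.

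The deepest fall in K27M was that of the H2B gene Hist1h2bh. It ran from 5.70 through a median of 25.1 to 60.8 FPKM in K27M tumors, against 284, 335 and 237 FPKM in K27M hindbrain cultures. Every tumor lay below every culture (log2 change -3.42 ± 0.59, adjusted p = 6.43e-06, limma). The linker gene Hist1h1b ran from 10.04 through 47.8 to 101 FPKM in tumors, against 439, 561 and 393 FPKM in cultures, again far apart (-3.39). Hist1h2bk (-3.39) and Hist1h3g (-3.18) fell as deeply. Hist1h4d, the most abundant member, ran from 162 through 304 to 473 FPKM in tumors, against 1480, 1690 and 1291 FPKM in cultures (-2.32 ± 0.34, adjusted p = 5.94e-07). The smallest falls that passed were those of Hist3h2ba (-1.06), Hist2h2ab (-1.25) and Hist1h4i (-1.28), and Hist4h4 did not pass (-0.85, adjusted p = 0.0707).

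Hist3h2a went the other way. Its annotated transcript overlaps an exon of Trim17 on the same strand, so reads from the overlap may belong to either gene. Hist3h2a ran from 2.03 through 5.06 to 10.9 FPKM in K27M tumors, against 2.17, 1.67 and 2.96 FPKM in K27M hindbrain cultures. The highest culture lay within the range of the tumors. Its log2 change was 0.80 ± 0.30 in K27M (adjusted p = 0.0190, limma) and 0.99 ± 0.32 in WT-Tag (adjusted p = 0.0113); the K27M call was lost without hindbrain K27M culture 1 (0.0659) or 2 (0.118). In WT-Tag the deepest falls were again those of Hist1h1b (-2.78) and Hist1h2bh (-2.76), and Hist1h4i, at 105 ± 57.6 FPKM in tumors and 96.4 ± 14.5 in cultures, gave a log2 change of 0.00 (adjusted p = 0.996).

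Genes of the machinery were lower in part. Among all genes 26.5% were called lower and 33.1% higher in K27M tumors, and 17.4% lower and 28.9% higher in WT-Tag tumors. In K27M tumors 8 of 17 stem-loop processing genes were lower and 1 was higher than in hindbrain cultures, with a median log2 change of -0.41. Slbp averaged 6.71 ± 0.902 FPKM in tumors and 16.6 ± 1.45 in cultures (-1.20, adjusted p = 7.82e-08), Lsm10, another U7 snRNP protein, fell by 1.46 on the log2 scale, and Sympk, a scaffold of the cleavage complex, rose by 0.52 (adjusted p = 0.00441). Npat fell by 0.44 (adjusted p = 0.0108) and Casp8ap2 gave -0.24 (adjusted p = 0.322); of the 11 transcription genes 8 were lower, with a median of -0.55. Among 21 chaperone genes 16 were lower and 2 higher, with a median of -0.91; the lower ones were led by Hjurp (-2.62), Hat1 (-2.13), which acetylates new H4, and Nasp (-2.08), which binds free H3 and H4; one of the higher ones was Daxx, a chaperone of H3.3 (1.20, adjusted p = 0.0138). Of 12 replication-independent histone genes 9 were lower, with a median of -0.91: Cenpa fell by 2.67 and H2afx by 2.59, H3f3a fell by 0.97, and H3f3b did not pass (-0.57, adjusted p = 0.0712). All 31 S phase and all 20 mitotic genes were lower, with medians of -1.78 and -2.63. In WT-Tag tumors 4 processing genes were lower and 1 higher, 7 transcription genes were lower, 10 chaperone genes were lower and 1 higher, and 7 replication-independent, 22 S phase and 20 mitotic genes were lower. All 12 microglial, 10 endothelial and 10 oligodendrocyte markers were higher in tumors of both genotypes, as were 11 of 11 neuronal markers in K27M and 10 of 11 in WT-Tag. Their part in the lower histone levels was not tested.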

How the data were processed

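Per the labels' protocols, RNA was extracted with Trizol, ERCC RNA was added to the neurosphere samples, and the library kit was TruSeq Stranded Total RNA. Per the submitters' processing notes, the tools were CASAVA, STAR and TopHat2 and the build was mm9; for counting tool, gene models and use of strand, nothing is given in these sources. The authors deposited FPKM values for 34591 genes, 974 of them at 0 in all libraries; the counts behind them are unknown, so no counting interval is given.

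FPKM values are not counts, so 2-sided tests used limma 3.58.1 in R 4.3.3 with its mean-variance trend, after log2(FPKM + 1) transformation, with Benjamini-Hochberg adjustment over all genes tested and a threshold of 0.05; fold changes on this scale understate those of low genes. Genes needed 1 FPKM or more in 9 or more tumors, or in 3 or more libraries for the neurosphere fit (4 groups) and the fit of all 41 libraries (6 groups). A permutation test of 3 against 3 libraries cannot give a p below 0.1. The fit was tested on simulated data. Sums over members are descriptions with SD and no test. Sequences come from GENCODE M21 transcripts (56 members matched by gene ID, 14 by symbol) and RefSeq promoters (62 members). Tables and figures were made with Python 3.11.15, pandas 2.3.3 and matplotlib 3.10.9.

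Members named in the text were the 3 most abundant and the most variable of each class and those past the threshold, up to 10 a direction; Hist1h1d in forebrain, Hist1h2ba, Hist1h2bf, Hist1h4i, Hist2h2ab, Hist2h2be, Hist3h2ba and the testis forms, and the genes Lsm10 and Lsm11, were added after their values were seen. The members and all gene lists were chosen with earlier results of these data known.

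Neurosphere libraries share an experiment id, which is taken as pairing them. Over genes, deviations of K27M and WT-Tag cultures of experiments 1, 2 and 3 from their group means correlated at 0.412, 0.152 and 0.438 in hindbrain and at 0.443, -0.234 and 0.352 in forebrain. Between hindbrain and forebrain cultures of the same letter, such deviations correlated at 0.668, 0.712 and 0.165 in WT-Tag. In K27M the values were 0.216, -0.0471 and -0.0405. The main fit did not use this pairing.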

Additional observations from a re-analysis of the deposited data

Results flagged for a closer look

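Among 66 values tested in the group of 9 WT-Tag tumors, 6 had 1 tumor whose gap to its nearest neighbor, divided by the range, exceeded Dixon's 95% critical value. For normally distributed values chance flags about 1 in 20 such groups. The values here were not log-transformed, are skewed and move together, so their rate of chance flags is not known. WT-Tag tumor 9 had the highest level of 3 genes: Hist1h4i at 248 FPKM, with the next tumor at 114 FPKM, the H2A gene Hist2h2ac at 56.0 FPKM, with the next at 30.8 FPKM, and Slbp at 14.4 FPKM, with the next at 9.46 FPKM. The same tumor had the highest histone sum of all tumors and sex-linked transcripts that go against its label. In WT-Tag tumor 26, which had the lowest histone sum, that sum was 94.7 times the summed mitotic list, with the next tumor at 49.7 times. Hist4h4 stood at 16.2% of the other H4 genes in WT-Tag tumor 27, with the next tumor at 8.04%. The red blood cell markers summed to 260 FPKM in WT-Tag tumor 8, with the next at 102 FPKM.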

How the results depend on the processing

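No called value of a single member changed direction under the alternatives run. Over all genes, the larger direction among calls changed with scaling in some comparisons. Hindbrain calls of K27M against WT-Tag, 1111 higher and 676 lower as deposited, became 960 and 1049 with upper-quartile scaling. Calls of K27M tumors against hindbrain cultures, 5562 higher and 4446 lower, became 4463 and 5654 with median centring. The median log2 change of members between tumor genotypes, with no member called, changed sign without some WT-Tag tumors. Over the members, hindbrain calls (10) became 2 without the filter, 0 with the region alone or without experiment 3, and 52 without both WT-Tag cultures of experiment 1, and ran from 0 to 44 with 1 library left out; forebrain calls (0) became 1 with upper-quartile scaling or the region alone and 54 without those cultures, with a range of 0 to 4. WT-Tag tumor against culture calls (57) became 38 with the 2 groups alone, with a range of 34 to 53. With the experiment as a replicate block, hindbrain member calls became 26 and the 5 genes with a different effect between regions became 0; the block moved no other count of calls by over 1.5 times.

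Over all genes, tumor calls (13) became 26 without the filter, 8 without WT-Tag tumors 8 and 9 and 0 in tumors labelled female (8 to 18 with 1 left out). Forebrain calls (47) became 86 with median centring, 80 with the region alone, 0 without experiment 3 and 824 without the experiment 1 WT-Tag cultures (20 to 178). Hindbrain calls (1787) became 1045 without the filter, 286 with the region alone, 97 without experiment 3 and 4568 without those cultures (554 to 4212). Calls of the difference between regions became 0 with a pseudocount of 0.1, 8 without the filter, 0 without experiment 3 and 223 without those cultures (0 to 295). Hindbrain against forebrain calls became 68 in WT-Tag (240) and 315 in K27M (1044) without experiment 3, and 1586 in K27M without those cultures; the ranges were 122 to 580 and 493 to 1474. The causes were not tested. Of 2998 values of single members under an alternative, 2827 kept their call, 83 gained and 88 lost one. The depth behind an FPKM is unknown, members under a few FPKM are the least precise, and near-identical members cannot be separated.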

Other observations

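K27M tumor 14 stood apart in genes for testis histones. Hist1h2aa was at 18.8 FPKM there, with the next library at 1.77 FPKM, Hist1h1t at 4.46 FPKM, with the next at 0.815 FPKM, and Hist1h2ba at 15.3 FPKM, with the next, a K27M forebrain culture, at 10.4 FPKM. Its histone sum, at 5318 FPKM, lay within the range of the K27M tumors.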
